A study of Mus with 4 samples.

Results

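Nuclear receptor coregulators are proteins that nuclear receptors recruit to switch genes on or off, and 9 of their genes were followed through the m6A peak lists of interscapular brown adipose tissue (iBAT): the coactivators *Ncoa1*, *Ncoa2*, *Ncoa3*, *Med1*, *Crebbp*, *Ep300* and *Ppargc1b*, and the corepressors *Ncor1* and *Nrip1*. Every listed peak whose gene symbol is one of these 9 was taken, which gave 37 of 18400 peaks in *Wtap* flox/flox mice and 34 of 18693 peaks in *Wtap*-BKO mice. All 9 genes carried at least 1 peak in each list, out of 11431 Ensembl genes with a peak in either list.

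The tissue came from 8-week-old C57BL/6 mice on normal chow. Both genotypes carry the floxed *Wtap* allele. *Wtap*-BKO mice (*Wtap* flox/flox UCP1-iCre) also carry a Cre inserted at the *Ucp1* gene, so that *Wtap* is deleted in cells expressing *Ucp1* while other cells of the fat pad keep it, and the control mice carry no Cre. Peaks of the *Wtap* flox/flox list are called control peaks from here on, and those of the *Wtap*-BKO list BKO peaks. WTAP is the regulatory subunit of the complex that writes m6A on mRNA. In MeRIP-seq an m6A antibody enriches modified mRNA fragments, and a stretch of exon with more reads in the immunoprecipitate (IP) than in the input is called a peak. Each list came from 1 IP and 1 input, each pooled from 8 mice, so there is no replicate and no difference between genotypes could be tested. The depth behind the lists is unknown. A peak shows that a stretch passed the authors' threshold, not how much transcript was there, and fewer modified transcripts and less of the transcript (or fewer cells making it) cannot be told apart.

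Nuclear receptors such as PPARγ and the thyroid hormone receptor bind DNA in fat cells and act through these coregulators. The NCOA proteins bind the activated receptor and bring in the histone acetyltransferases CBP (*Crebbp*) and p300 (*Ep300*). MED1 is the Mediator subunit that links receptors to RNA polymerase II, and PGC-1β (*Ppargc1b*) raises the transcription of mitochondrial genes. NCOR1 brings a histone deacetylase to receptors without ligand, and RIP140 (*Nrip1*) represses oxidative genes in fat.

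The tissue itself was checked by its markers, as far as peaks allow. All 12 genes of the brown adipocyte list had a peak in control iBAT and 11 in BKO iBAT, with 35 and 29 peaks. The list holds *Ucp1* and also genes of fat cells in general, *Fabp4*, *Plin1* and *Adipoq*. Peaks on markers of other cells numbered 14 and 24 for 10 macrophage genes, 0 and 4 for 10 T/B lymphocyte genes, 14 and 20 for 8 fibroblast genes, 14 and 19 for 6 endothelial genes, and 3 and 13 for 10 skeletal muscle genes. In genes with a peak these were 8 and 9 macrophage, 0 and 4 T/B lymphocyte, 8 and 8 fibroblast, 5 and 6 endothelial, and 3 and 9 skeletal muscle genes. *Adgre1*, *Cd3e*, *Ms4a1*, *Cd79a*, *Trbc1*, *Trbc2* and *Ckm* had no peak in either list. The part of these cells in the coregulator peaks, which come from the whole tissue, was not tested. *Wtap* had 4 peaks in each list, which says nothing of the deletion.

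Peaks were placed on GRCm38. A peak was called found when any exonic base of it, read on its own strand, was also covered by a peak of the other list. Of the 37 coregulator peaks of control mice, 27 were found in the BKO list and 10 (27%, 95% Wilson interval 15.4% to 43%) were not. Over all control peaks, 32.2% were not found, so the share for the coregulators was close to that of the list. Of the 34 BKO peaks, 7 (20.6%, interval 10.3% to 36.8%) were not found in control mice, against 32% of that whole list. The intervals cover counting error only, and peaks of 1 gene share a transcript. In the exonic bases covered, the 9 genes had 17240 bases under control peaks and 14118 under BKO peaks, a ratio of 0.819, where the ratio over all peaks was 0.907. Of the control bases, 71.3% also lay under a BKO peak (61.4% over all peaks), and of the BKO bases 87% lay under a control peak (67.7% over all peaks).

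**Figure D1:**
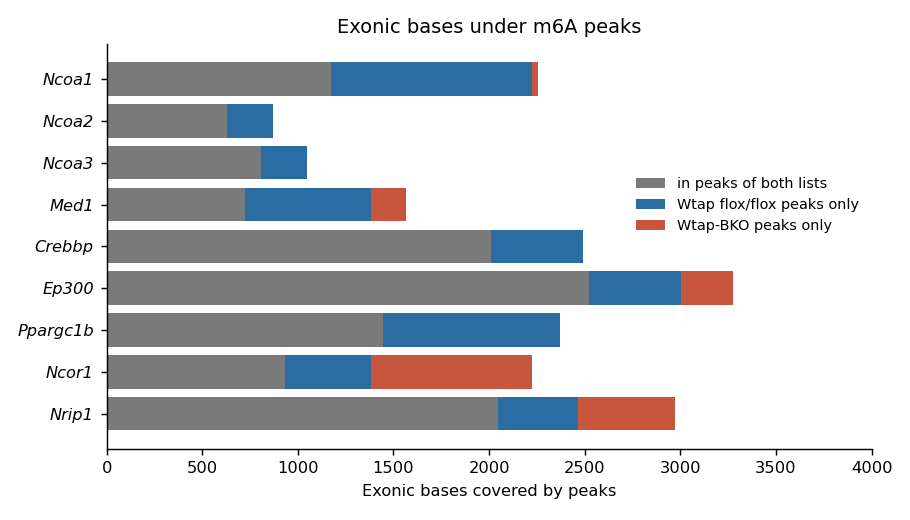
Exonic bases under m6A peaks for each of the 9 genes, split into bases under peaks of both lists (grey), of control mice only (blue) and of BKO mice only (red). *Crebbp*, *Ncoa2*, *Ncoa3* and *Ppargc1b* have no red part, and *Ncor1* has the longest, 842 bases.

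The peaks were then ranked within their list. Strength was taken as the percentile of a peak's false discovery rate (FDR) within its own list, the percent of that list with a larger FDR, and the rank of the fold enrichment of IP over input was taken likewise. The lists were called separately, so their values share no scale. The strongest control peak of each gene was found in BKO mice for 9 of 9 genes, where 18.8% of such peaks were not found over all genes with 2 or more. Of the other 28 coregulator peaks 10 were not found (35.7%, against 37.8% over all genes). Divided into quintiles of strength from the weakest upward, the coregulator peaks of control mice not found were 5 of 7, 3 of 6, 2 of 7, 0 of 9 and 0 of 8, where the shares over the list were 58.5%, 43.4%, 31.9%, 17.4% and 9.41%. For BKO peaks these counts were 2 of 4, 3 of 8, 2 of 8, 0 of 4 and 0 of 10, beside 63.4%, 47.7%, 32.9%, 13.1% and 2.47%. The strongest BKO peak was found for 7 of the 7 genes with 2 or more (14.7% not found over all genes), and 7 of their other 25 were not (28%, against 38.7%).

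Counted by gene, 6 of the 9 (66.7%, interval 35.4% to 87.9%) had a control peak that was not found, against 46.1% of all genes with a control peak. The 9 genes have 2 to 6 control peaks each, more than many genes, and a gene with more peaks has more that can be missed. With all genes weighted to the peak numbers of the 9, a comparison added after the values were seen, the share was 67.4%, close to that of the 9. In the other direction, 3 of the 9 had a BKO peak that was not found, *Med1*, *Ep300* and *Ncor1*, against 47.7% of all genes with a BKO peak and 64.9% when weighted by BKO peak number. None of the 9 was without a BKO peak (17.7% of all genes with a control peak had no BKO peak, and 3.47% weighted by peak number). Fewer BKO than control peaks were listed for 5 of the 9 genes (55.6%, interval 26.7% to 81.1%), against 23.2% of genes with peaks in both lists. A gene with 1 control peak cannot have fewer and still have a BKO peak, and weighted by peak number the share was 51.5%. These genes were *Ncoa1*, *Ncoa2*, *Ncoa3*, *Med1* and *Ep300*.

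**Figure D2:**
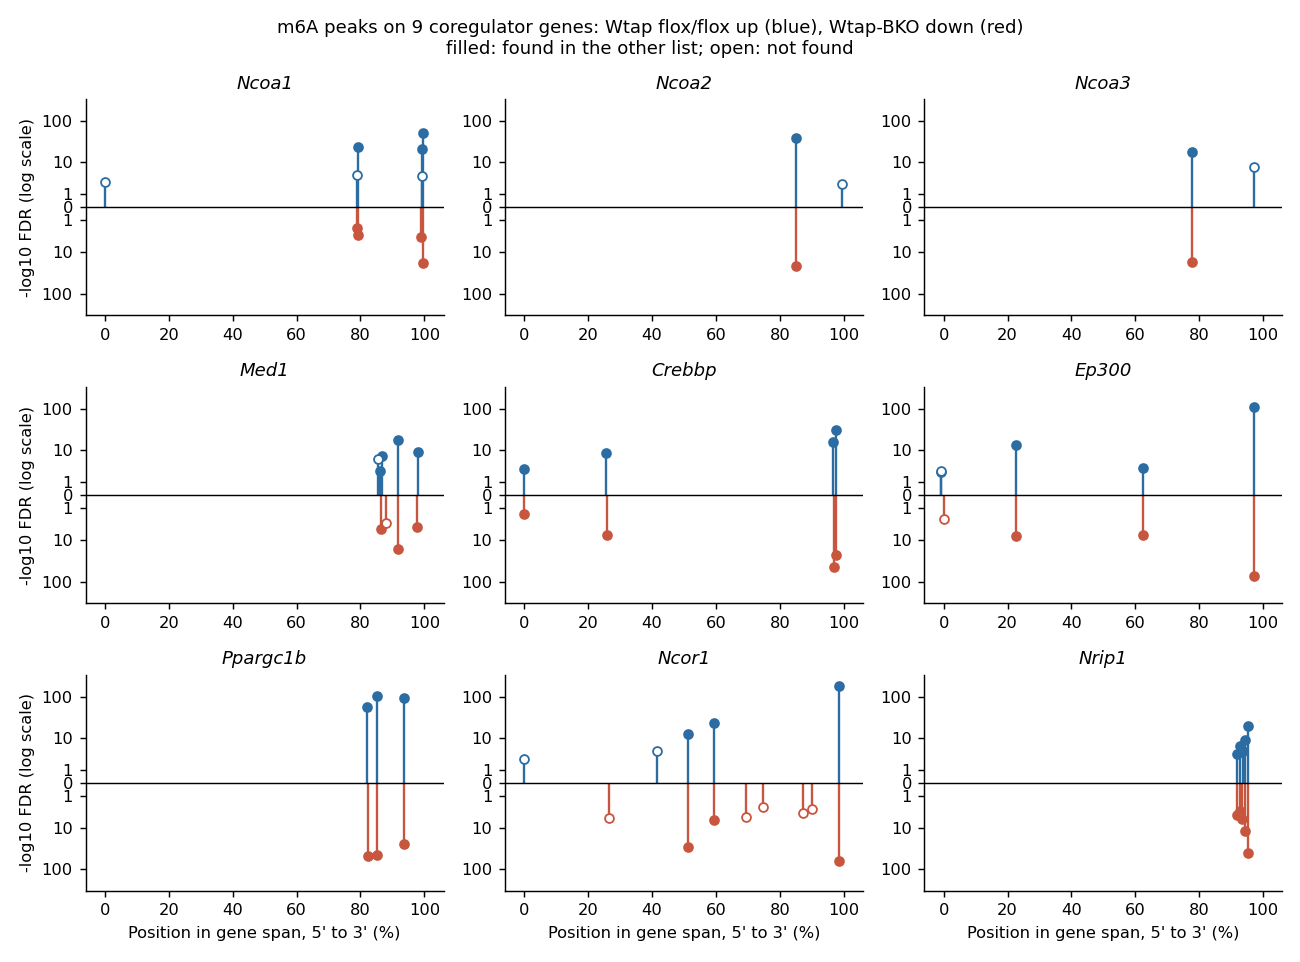
Peaks on the 9 genes by position of the peak's centre along the gene span (0% is the 5ʹ end and 100% the 3ʹ end), with the size of the log10 FDR on a log scale, control upward in blue and BKO downward in red. Filled circles are peaks found in the other list and open circles are peaks not found; the tallest stem of each gene in either direction ends in a filled circle.

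The 3 steroid receptor coactivators had fewer listed peaks in BKO mice. In each of *Ncoa1*, *Ncoa2* and *Ncoa3* some control peak was not found, and every BKO peak was. Together 5 of their 10 control peaks were not found, and 0 of 6 BKO peaks, beside 32.2% and 32% over the lists. All 5 stood at percentile 49 or lower of strength. Over the list, 58.5%, 43.4% and 31.9% of control peaks in the 3 weakest quintiles were not found. Their covered bases were 4144 and 2642.

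*Ncoa1* (ENSMUSG00000020647, minus strand of chromosome 12) was covered by 6 control peaks, 2225 bases in all, and by 4 BKO peaks with 1203. The strongest, from 4247572 to 4248381 and centred 615 bp from the 3ʹ end of the gene, was enriched 10-fold in the IP, and its log10 FDR of −51 put it at the 89.5th percentile of strength. The BKO peak on it, from 4247692 to 4248351, was enriched 4.36-fold and stood at the 78.5th percentile of the BKO list. By fold enrichment the percentiles were 67.5 and 46.9. Further into the gene, the peak from 4295115 to 4295655 stood at percentile 77.6. It met 2 short BKO peaks of 181 and 121 bases, at percentiles 25.9 and 4.57, which left its middle uncovered. The stronger of them stood 51.7 percentile points lower than the control peak, the largest difference downward among the 27 coregulator peaks that were found. The peak from 4249281 to 4249731 stood at percentile 74.5 and the BKO peak on it at 29.9. The 3 peaks not found had 181, 121 and 121 bases, and one of them, from 4476822 to 4476942, was centred 324 bp from the 5ʹ end. With 52.7% of its control bases also under a BKO peak, *Ncoa1* had nearly the lowest share of the 9 genes, beside *Med1* with 52.3%.

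*Ncoa2* (ENSMUSG00000005886, minus strand of chromosome 1) and *Ncoa3* (ENSMUSG00000027678, plus strand of chromosome 2) were alike in layout. Each had 1 long peak in both lists and 1 short peak towards the 3ʹ end in control mice only. The long *Ncoa2* peak, from 13174107 to 13174886, was enriched 14.4-fold at percentile 85.6 of strength. The BKO peak within it covered 631 of its 780 bases, was enriched 10.1-fold and stood at percentile 81.7. The long *Ncoa3* peak, in 2 blocks from 166054844 to 166057160, counted 868 bases and the BKO peak on it 808, at percentiles 71.7 and 77.9. These long peaks were centred at 84.9% (*Ncoa2*) and 77.7% (*Ncoa3*) of the gene span from the 5ʹ end, introns included, and the 541-base *Ncoa1* peak described above at 79.1%. The short peaks not found had 91 bases in *Ncoa2*, at percentile 9.11, and 180 bases in *Ncoa3* (from 166070790 to 166070969), at percentile 49. Every peak was found for 50.7% of genes with 2 control peaks, and for 23.2% of genes with the 6 that *Ncoa1* had.

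The genes of the histone acetyltransferases CBP and p300 had most of their covered bases in both lists. Of 5493 control bases on *Crebbp* and *Ep300*, 82.5% also lay under BKO peaks, the highest share among the 4 groups described here.

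*Crebbp* (ENSMUSG00000022521, minus strand of chromosome 16) had 4 peaks in each list, and the 4 pairs matched 1 to 1. Among genes with 4 control peaks, every peak was found for 31.5%. The first pair, from 4083994 to 4085282 in control mice with 1289 bases, lay 3304 bp from the 3ʹ end of the gene, and the BKO peak shared its left end and 1229 bases. The second, from 4085372 to 4085941, had the log10 FDR −16.5 and the BKO peak on it −46.1, which placed them at percentiles 68.8 and 92.2. By fold enrichment 3 of the 4 *Crebbp* peaks ranked higher in the BKO list and 1 lower. Its 3 longest control peaks were enriched 10.5-fold, 5.46-fold and 6.08-fold, at percentiles 68.9, 42.1 and 46.8 of fold enrichment. The BKO peaks on them were enriched 22.8-fold, 17.4-fold and 30.3-fold, at percentiles 96.6, 92.7 and 98.4. These were the 3 largest upward differences in fold percentile among the 27 found peaks. The remaining peak, from 4213787 to 4213967, was centred 80 bp from the 5ʹ end and was weak in both lists, at percentiles 16.6 and 1.35. It was enriched 15-fold in control and 10.6-fold in BKO mice, at percentiles 84 and 78.3 of fold enrichment.

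*Ep300* (ENSMUSG00000055024, plus strand of chromosome 15) had the longest peak of the 9 genes. It ran from 81649109 to 81651207 in control mice, 2099 bases, and from 81649199 to 81651178 in BKO mice, 1980 bases. With log10 FDR values of −108 and −74.1 it stood at percentiles 96 and 96.1, a difference of 0.101 points. It was enriched 25-fold in control and 11-fold in BKO mice, at percentiles 95.8 and 80 of fold enrichment. The peak from 81627304 to 81627394 was the only one of the 22 pairs matched 1 to 1 that was longer in BKO mice, with 91 bases in control and 241 in BKO mice, and the strength percentiles were 20.3 and 55.2. At the 5ʹ end the lists differed in place. Control mice had 2 weak peaks of 91 and 121 bases centred upstream of the gene start in the RefSeq table (at −603 and −438 bp from it), and BKO mice had 1 of 120 bases centred 42 bp inside it. All 3 stood at percentile 13.3 or lower.

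*Med1* and *Ppargc1b* link receptors to the transcription machinery and to mitochondrial gene expression. *Ppargc1b* (ENSMUSG00000033871, minus strand of chromosome 18) had 3 peaks in each list, each in the top quintile of its list and each found in the other. Every peak was found for 36.2% of genes with 3 control peaks. In order along the chromosome, from 61298196, 61307226 and 61310538, the log10 FDR was −90.2, −105 and −58.1 for the control peaks and −24.5, −45 and −48.8 for the BKO peaks on them. In rank these were percentiles 94.8, 95.8 and 91 of the control list and 84, 92 and 92.8 of the BKO list. They differed in length. Control peaks had 601, 811 and 961 bases and BKO peaks 421, 721 and 301, and the last was missing 600 bases on its 5ʹ side and 60 on its 3ʹ side. In all, 60.8% of the control bases of *Ppargc1b* lay under a BKO peak, and 0 bases lay under BKO peaks alone. Another RefSeq gene, *Gm46627*, overlaps the first peak.

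On *Med1* (ENSMUSG00000018160, minus strand of chromosome 11) 5 control peaks covered 1384 bases and 4 BKO peaks 903. The strongest, from 98155271 to 98155781, was enriched 18.9-fold and the BKO peak on it 10.8-fold, at percentiles 70.7 and 77.1 of strength. Between 98157040 and 98158298 the peaks of the 2 lists interleaved. A BKO peak from 98157609 to 98157819 bridged 2 control peaks, which shared 121 and 31 bases with it. The control peak from 98158029 to 98158298 was not found, and a BKO peak from 98157040 to 98157159 had no control peak on it. The peak from 98152903 to 98153143, 869 bp from the 3ʹ end of the gene, had 241 bases in control and 151 in BKO mice.

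The corepressors differed from the coactivators in the direction of covered length. *Ncor1* and *Nrip1* together had 3846 bases under control peaks and 4327 under BKO peaks, and they were the only 2 of the 9 genes with more bases in BKO mice. Over all genes with peaks in both lists, 53.2% had fewer bases in BKO mice, against 7 of the 9 coregulator genes (77.8%, interval 45.3% to 93.7%). Weighted by peak number the share over all genes was 68.7%.

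On *Ncor1* (ENSMUSG00000018501, minus strand of chromosome 11) 5 control peaks covered 1383 bases and 8 BKO peaks 1774. It was the only one of the 9 genes with more peaks in BKO mice (26.3% of genes with peaks in both lists, and 20.6% weighted by peak number). Its strongest peak, from 62317503 to 62317922 and centred 2050 bp from the 3ʹ end, had the smallest FDR of all coregulator peaks, with a log10 of −173, at percentile 98.1, and was enriched 14.9-fold. The BKO peak within it had −62.5, at percentile 94.9, and was enriched 4.62-fold. In rank of fold enrichment the pair stood at percentiles 83.9 and 49.7. The 2 peaks in the middle of the gene differed in opposite directions. The one from 62373102 to 62373432 stood at percentile 76.9 and its BKO peak at 49.9, while the one in 3 blocks from 62383261 to 62389777 stood at 62.5 and its BKO peak at 86.9.

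The 5 BKO peaks of *Ncor1* without a control peak made up most of the 7 such peaks of all 9 genes (a block is a stretch of 1 exon, and 3 of them had 2 blocks). They began at 62329561, 62333739, 62349482, 62358904 and 62410830, centred at 90.2%, 87.2%, 74.8%, 69.4% and 26.7% of the gene span, and had 90, 180, 91, 180 and 271 bases. They were enriched 1.66-fold, 2.13-fold, 2.09-fold, 2.44-fold and 2.62-fold, at percentile 20.7 or lower, and the one with the smallest FDR stood at percentile 46 of strength. At least 5 such peaks, a limit chosen after the values were seen, occurred in 0.185% of all genes with a BKO peak and in 3.85% of genes with 5 or more BKO peaks. Most genes have too few BKO peaks to reach that limit. *Ncor1* had 8, and no share over genes with that number is given here, so how rare its count is remains unknown. Conversely, 2 control peaks were not found, from 62398276 to 62401249 in 2 blocks and from 62457221 to 62457311, the latter centred 148 bp from the 5ʹ end. *Ttc19* spans the 3ʹ part of *Ncor1* in the gene table, over the strongest peak and over the BKO peak at 62329561, and neither list has a *Ttc19* peak on them.

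*Nrip1* (ENSMUSG00000048490, minus strand of chromosome 16), whose protein is encoded by a single exon, had 5 peaks in each list of 1 block each, between 76291059 and 76294747, at 91.7% to 95.3% of the gene span. Each of the 10 was found in the other list. Among genes with 5 control peaks, every peak was found for 25.2%, and *Nrip1* was the only such case among the 4 coregulator genes with that number. Its bases under peaks were 2463 and 2553, of which 2044 were shared. The peak nearest the 3ʹ end, from 76291059 to 76291928, had the log10 FDR −20.1 and the BKO peak on it −41.5, at percentiles 73.3 and 91.1. In fold enrichment the order turned. The first 2 control peaks along the chromosome were enriched 23.6-fold and 27-fold, at percentiles 95 and 96.5, and the BKO peaks on them 14.1-fold and 5.06-fold, at percentiles 87.8 and 53.4. The BKO peak from 76292048 to 76292858 lay over the second control peak and reached the third.

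**Figure D3:**
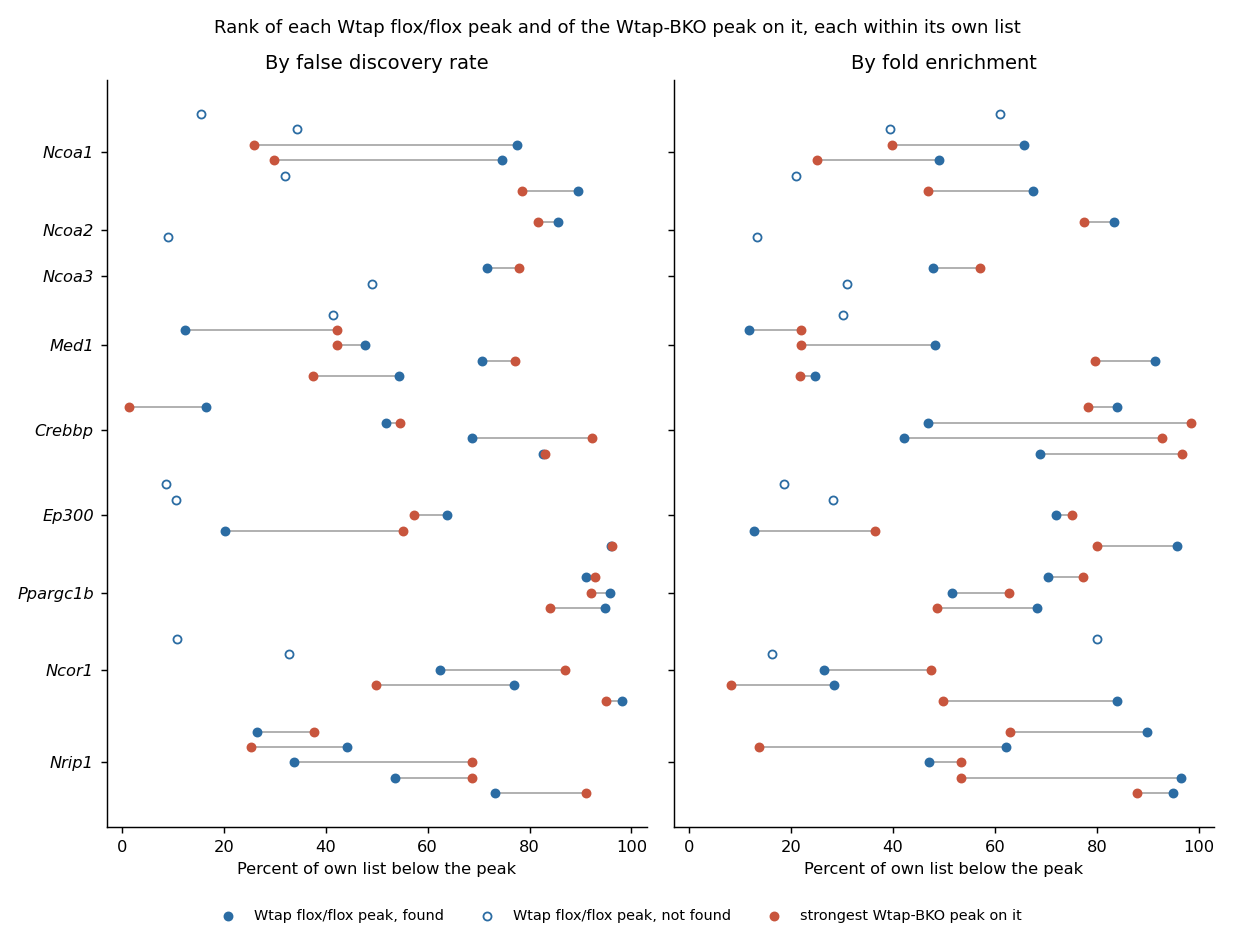
Rank of the 37 control peaks within their list (blue) and of the strongest BKO peak on each within its own (red), by FDR on the left and by fold enrichment on the right, in percent of the list below the peak; open circles were not found. Long lines run to the left for *Ncoa1* and to the right in the fold panel for *Crebbp*.

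The ranks of the 27 found peaks showed no common direction. By FDR 13 ranked lower in BKO mice (48.1%, against 43.6% of all found peaks), 3 of them by at least 20 percentile points (11.1%, against 15.2%), namely 2 on *Ncoa1* and 1 on *Ncor1*. At least 20 points higher were 5 peaks (18.5%, against 22.7%), on *Med1*, *Crebbp*, *Ep300*, *Ncor1* and *Nrip1*. Each was ranked by the strongest BKO peak on it, and the *Med1* peak shared only 31 of its 91 bases with that peak. On *Nrip1* a weaker BKO peak, from 76292918, shared 181 bases with the control peak. It stood at percentile 47.5, against 33.7 for the control peak. By fold enrichment 16 of the 27 ranked lower (59.3%, against 48.9%), and 9 of them by at least 20 points (33.3%, against 21.9%). Of the 8 peaks in the top quintile of the control list, 0 ranked at least 20 points lower by FDR, against 18.3% of all found peaks there.

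Most paired coregulator peaks had a shorter outline in BKO mice. In 22 cases 1 control peak and 1 BKO peak lay on each other and on no other peak, and comparing these pairs was chosen after the data were seen. In 19 of these pairs (86.4%, interval 66.7% to 95.3%) the BKO peak was shorter and lay wholly inside the control peak, against 38.9% of all 10564 such pairs. The BKO peak had fewer bases in 20 of the 22 pairs (90.9%, against 48.3%). The reverse nesting held for 1 of the 22, on *Ep300*, against 30.9% of all pairs. The exceptions were 1 *Ncor1* pair of equal length, shifted by 30 bases, and 1 *Nrip1* pair, which was shorter in BKO mice but reached 90 bases past the control peak. The median ratio of BKO to control bases was 0.817 (range 0.313 to 2.65), where the median over all pairs was 1. Coregulator peaks were longer than the list as a whole, with a median of 361 bases against 240 in the control list. Among pairs with a control peak of 240 bases or more, a limit also chosen then, 18 of 20 coregulator pairs were of this kind against 53% of all, and the median ratios were 0.817 and 0.871. The paired coregulator control peaks had 91 to 2099 bases, and no share over pairs matched more closely in length is given here. Among pairs with a control peak in the upper 2 quintiles of strength, the shares were 15 of 16 and 53.8%. Of the 44 differences between paired peak ends, 42 were within 1 base of a multiple of 30 bases, so ends are known only to that step. With more than 60 bases missing, another limit chosen after the data were seen, 14 of 22 pairs remained, against 25.7% of all. Whether depth or transcript level in the BKO pool sets the outlines was not tested.

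**Figure D4:**
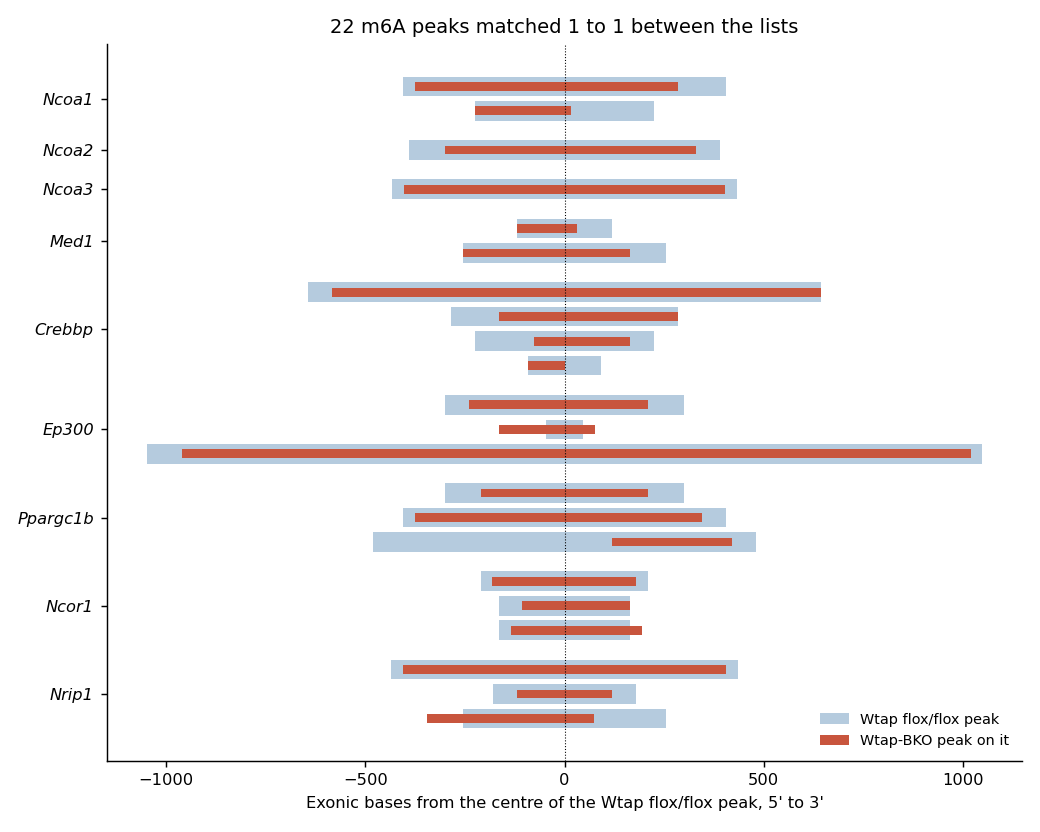
The 22 peaks matched 1 to 1, drawn in exonic bases from the centre of the control peak (pale blue) with the BKO peak on it in red. The red bar lies inside the blue bar in 19 of the 22 pairs, and the red bar of the last *Ppargc1b* pair covers 301 of 961 bases.

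Few coregulator peaks were centred within 2000 bp of the 3ʹ end or within 1000 bp of the 5ʹ end. Such windows are short beside these gene spans. By share of the span, introns included, all *Nrip1* peaks lay at 91.7% to 95.3%, while control peaks of *Ncor1* ranged from 0.104% to 98.6%. Of 35 control peaks inside the gene span, 2 (5.71%, interval 1.58% to 18.6%) were centred within 1000 bp of the 3ʹ end, against 21.7% of all peaks in genes of 3000 bp or more and 13.6% in genes of 40000 bp or more, a limit chosen after the spans of 41160 to 235123 bp were seen. Within 500 bp lay 0 (11.5% of all) and within 2000 bp 5 (14.3%, against 37.5%). In BKO mice there were also 2 within 1000 bp, of 34 peaks (5.88%, against 19.3% and 12.6%), with 0 within 500 bp (9.84% of all) and 3 within 2000 bp (8.82%, against 34%). Near the 5ʹ end the peaks were few and weak. Of 5 control peaks centred within 1000 bp of it on either side, on *Ncoa1*, *Crebbp*, *Ep300* and *Ncor1*, 4 (80%, interval 37.6% to 96.4%) were not found, against 29.9% of all such peaks. All 5 had 181 bases or fewer and stood at percentile 16.6 or lower. Among peaks near the 5ʹ end in the weakest quintile of the control list, where all 5 lie, 52.7% were not found. Of 2 BKO peaks there, on *Crebbp* and *Ep300*, the *Ep300* peak was not found (39.2% of all such BKO peaks were not). Peaks in 2 or more blocks, split by an intron, were 5 of 37 (13.5%, against 15.4%) and 5 of 34 (14.7%, against 19.8%). Exons, coding sequence and UTRs are not marked in the gene table used here, so peaks were not assigned to them, and the sequences under the peaks were not analysed here.

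**Figure D5:**
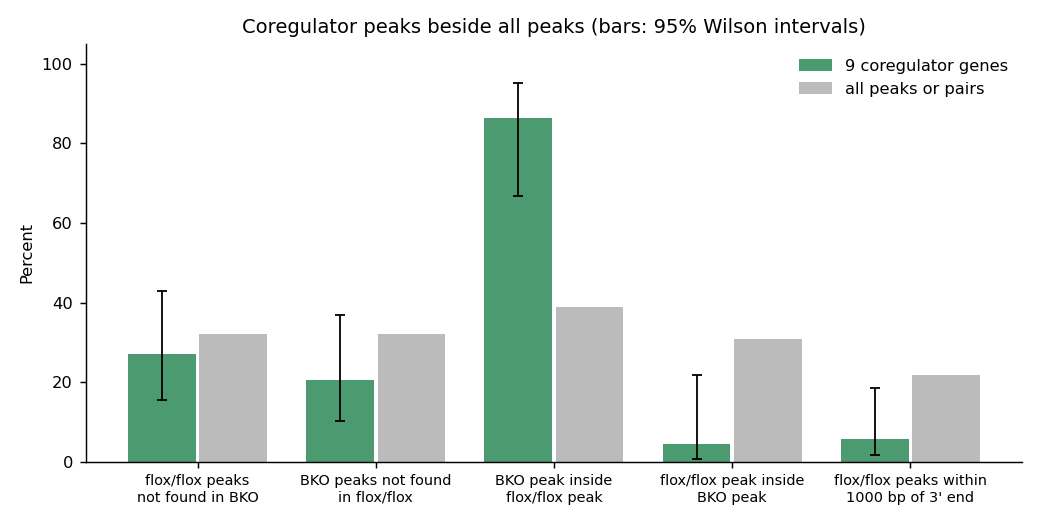
Shares in percent for the 9 coregulator genes (green, with 95% Wilson intervals) beside all peaks or all 1-to-1 pairs (grey). The green bar stands furthest from the grey one for BKO peaks inside control peaks, 86.4% beside 38.9%.

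Other coregulators gave the wider setting. Of 35 further genes of this kind, 29 had a control peak, and 13 of these (44.8%, interval 28.4% to 62.5%) had at least 1 without a BKO peak on it, against 46.1% of all genes and 6 of the 9. The 46.1% was not weighted to the peak numbers of these genes, and for the 9 such weighting gave 67.4%. By peaks, 22 of 93 control peaks (23.7%, against 32.2% over the list) and 19 of 89 BKO peaks (21.3%, against 32%) were not found in the other list. *Prdm16*, which commits precursors to brown fat, had 8 control peaks over 1746 bases, 5 of them not found, and 1 BKO peak of 1230 bases that lay over the other 3 and shared 932 bases with them. *Med13*, which belongs to the kinase module of Mediator, had 5 and 2 peaks over 1171 and 361 bases, and its peak from 86298331 to 86298780 on chromosome 11, enriched 7.2-fold with the log10 FDR −12.1, was not found. *Arid1a*, a chromatin remodelling subunit, had 3452 bases under 7 control peaks, 2 of them not found, and 3270 under 5 BKO peaks. *Tbl1xr1*, a partner of NCOR1, had 2 and 1 peaks that did not overlap. In the opposite direction, *Gps2*, another subunit of the NCOR complex, and the remodelling ATPase *Smarca4* had 3 BKO peaks each and no control peak. These 6 peaks were enriched between 1.9-fold and 3.03-fold. The 2 genes were among 30 further coregulators with a BKO peak, and 1 further coregulator had control peaks only. The share of all genes with peaks in BKO mice only is not given here. *Ncoa7*, *Pprc1* and *Nsd1* each had 2 BKO peaks that were not found, among 4, 5 and 8.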

How the data were processed

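The m6A peaks of iBAT were compared between control (*Wtap* flox/flox) and BKO (*Wtap*-BKO) pools. The authors called peaks on 1 pooled IP against 1 pooled input per genotype and deposited 1 list each, under a false discovery rate of 0.05. The methods name MACS2 for peak detection, and the lists give peaks as spliced blocks on Ensembl genes. The submitters' processing notes list fastp 0.19.11, BWA 0.7.12, HOMER 4.9.1 and GRCm38.p6 without their roles. The deposited files give each peak a p-value, a score for the p-value and another for the false discovery rate (both on a log10 scale), and the fold enrichment, a ratio of IP over input whose scaling is not described. No read counts were analysed, so the depth is unknown.

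Peaks were matched in Python 3.11.15 using numpy 2.4.6, pandas 2.3.3 and scipy 1.17.1, and plots used matplotlib 3.10.9. The overlap step was tested on a copy of the 18400 control peaks in which peaks were kept, shortened or removed. All 18400 came out as simulated, and displaced peaks were not simulated. Starts are given counting from 1. Identical entries occur for 5 control peaks, none of a coregulator gene. Gene spans came from a RefSeq table of GRCm38.p6, which holds all 9 symbols. Of 16612 control peaks with symbol and chromosome in it, 98.3% had their centre inside the gene. Samples were grouped by their titles. Alternatives were the false discovery rate limit, the overlap rule, merging of near peaks, the rank measure and the end window. The members, lists and rules were chosen with earlier results of these data known. The text names the 9 genes, *Wtap*, the markers, and from the lists of coregulators and nuclear receptors up to 5 genes with the most peaks not found in each direction, ties by false discovery rate, and some of these genes and markers are not reported here. No gene was named for a similar pattern, since 2 pooled samples give none to compare. The motif search was not run, since no genome sequence was used here.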

Additional observations from a re-analysis of the deposited data

How the results depend on the processing

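Of 32 alternatives, 16 left the count within 1.5 times the reported one. With a false discovery rate under 1e-05, the 9 genes had 24 control and 22 BKO peaks, of which 2 and 2 were not found among all peaks of the other list (20.4% and 15.4% over all peaks), and 6 and 4 with the limit in both lists (33.8% and 28.1%). Of the genes with a control peak under that limit, 6 of 28 on the coregulator list (21.4%) had such a peak not found. On the nuclear receptor list these were 10 of 26 (38.5%). The share over all genes under that limit is not given here. When any peak of the same gene counted as found, 0 peaks of the 9 genes were not found in either direction. Over all peaks the shares were 11.8% (control) and 11.1% (BKO). By that rule 1 of 29 coregulator genes (3.45%) and 4 of 30 nuclear receptor genes (13.3%) were counted. Of all genes with a control peak, 17.7% had no BKO peak. At least 20 percentile points weaker were 9 of 27 found peaks by fold enrichment, and 8 were at least 10 points weaker by false discovery rate. Within 500 bp of the 3ʹ end lay 0 peaks, and within 2000 bp 5. The cause of these changes was not tested. Requiring 50% of a peak's bases to be shared, matching whole spans and merging of near peaks moved no count of the 9 genes by more than 1.5 times. No paired analysis was possible because there is 1 pooled sample per genotype, and for the same reason no replicate could be left out. The depth behind the lists is unknown, and a peak missing from a list was not detected at the authors' threshold.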

Other observations

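The receptors that coregulators bind were counted in the same way. Of 35 nuclear receptor genes, 30 had a control peak, and 17 of these (56.7%, 95% Wilson interval 39.2% to 72.6%) had at least 1 without a BKO peak on it, where 46.1% of all genes did. The 46.1% was not weighted to the peak numbers of the receptor genes, so the 2 shares are not matched. By peaks, 23 of 71 (32.4%, against 32.2% over the list) were not found, and 13 of 63 BKO peaks (20.6%, against 32%) were not found in control mice. *Nr4a2*, *Esr1*, *Nr1h2* and *Nr2c1* had peaks in control mice only, and no receptor gene of the list had them in BKO mice only. These 4 were 13.3% of the 30 receptor genes with a control peak, against 17.7% of all genes with one. The share of all genes with peaks in BKO mice only is not given here. *Nr2c1* was named after its values were seen.

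Several receptor genes had strong control peaks that were not found, as did other genes. Over the list, 9.41% of control peaks in the strongest quintile and 17.4% in the next were not found. No share by strength is given here for receptor peaks. *Nr4a2*, an orphan receptor of the immediate early kind, had 2 peaks on chromosome 2 with log10 FDR values of −71.2, at percentile 93.1 of strength, and −27.1. *Esr1*, the oestrogen receptor, had its stronger peak from 5001660 to 5001989 on chromosome 10, with −31.5. *Esrrg*, a receptor that drives oxidative genes, had 4 peaks over 1293 bases in control mice, 3 of them not found, and 1 of 150 bases in BKO mice. *Nr1h2* had 2 weak ones. BKO peaks that were not found numbered 2 for *Pparg* and *Esrra* and 1 for *Nr1d2*, *Rara* and *Nr2f2*. The 1 control peak of *Pparg* had 866 bases, was enriched 3.98-fold and stood at percentile 98.4 of strength. It shared 510 bases with BKO peaks of 210 and 300 bases, enriched 1.4-fold and 2.25-fold, the stronger at percentile 97.3. These values describe 1 pool per genotype.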
